A study of Mus musculus with 8 samples.

Results

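Transcripts of 10 transcription factors that commit blood progenitors to a myeloid or an erythroid fate were followed in mouse haematopoietic stem cells (HSCs) and in the wider LSK fraction, each cultured with or without red blood cells (RBCs). The factors were taken by name and not by a cut on their values, though with earlier results of these data known. They were Spi1, Cebpa, Cebpb, Cebpe, Irf8 and Gfi1 on the myeloid side, Gata1, Klf1 and Gfi1b on the erythroid side, and Ikzf1, which serves several lineages. All 10 were found among the 24346 gene symbols of the deposited tables. The 8 libraries formed 4 groups of 2. HSCs (Lin- Sca-1+ c-Kit+ CD48- CD150+, named LT-HSC in the labels) and LSK cells (Lin- Sca-1+ c-Kit+) were sorted from wild-type (WT) bone marrow and kept for 1 day either in single culture or in co-culture with RBCs. The HSC gate lies within the LSK gate, so the LSK fraction holds HSCs and the multipotent progenitors around them. All groups shared a serum-free medium with thrombopoietin and stem cell factor, and a sort of CD45-positive cells after lysis of the RBCs. The RBCs came from the heart blood of C57BL/6 mice, passed through a leukocyte filter and irradiated. The groups therefore differ by the starting gate and by the RBCs, and cells that differentiated or died during the culture were not separated from those that kept their starting phenotype.

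Lineage choice in the marrow is set by small sets of transcription factors that switch on the genes of one lineage and restrain those of another. PU.1, encoded by Spi1, is an ETS-family factor needed by all myeloid cells, and GATA1 drives red cell and megakaryocyte genes; the proteins bind and inhibit each other. C/EBPα takes progenitors into the granulocyte and monocyte pathway, IRF8 directs them towards monocytes and dendritic cells, C/EBPε and GFI1 act in the making of granulocytes, and C/EBPβ acts when myeloid output must rise. KLF1 switches on globin and red cell membrane genes, GFI1B is a transcriptional repressor that acts within the erythroid and megakaryocyte lineages, and Ikaros, encoded by Ikzf1, primes progenitors for the lymphoid lineage. Transcripts of many of these factors are present at a low level in stem cells before any commitment.

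The bases before the transcription starts of 4 of these genes are printed to show the letters there that such factors are known to bind. Cebpa and Irf8 are shown because they separated LSK cells from HSCs most, Gata1 because it stands at the head of the erythroid factors, and Gfi1b because it was the most abundant of the 10. The sequences are from RefSeq on GRCm38.p6 and read 5′ to 3′ along the strand of the gene, 250 bases each, ending at the base before the start. They lie at chr7:35119043-35119292 (plus strand) for Cebpa, chr8:120736108-120736357 (plus strand) for Irf8, chrX:7967911-7968160 (minus strand) for Gata1 and chr2:28621983-28622232 (minus strand) for Gfi1b. Capitals mark matches to a searched motif on either strand.
Cebpa: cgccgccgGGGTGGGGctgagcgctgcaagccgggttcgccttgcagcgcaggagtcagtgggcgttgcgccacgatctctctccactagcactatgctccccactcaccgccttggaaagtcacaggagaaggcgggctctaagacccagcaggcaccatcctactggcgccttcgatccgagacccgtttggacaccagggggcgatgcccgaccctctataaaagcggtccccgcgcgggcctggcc
Irf8: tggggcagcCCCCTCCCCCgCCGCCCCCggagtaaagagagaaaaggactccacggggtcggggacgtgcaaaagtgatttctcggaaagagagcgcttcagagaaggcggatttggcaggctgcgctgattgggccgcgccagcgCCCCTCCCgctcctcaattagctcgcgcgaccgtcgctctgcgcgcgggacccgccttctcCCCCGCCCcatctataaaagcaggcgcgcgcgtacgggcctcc
Gata1: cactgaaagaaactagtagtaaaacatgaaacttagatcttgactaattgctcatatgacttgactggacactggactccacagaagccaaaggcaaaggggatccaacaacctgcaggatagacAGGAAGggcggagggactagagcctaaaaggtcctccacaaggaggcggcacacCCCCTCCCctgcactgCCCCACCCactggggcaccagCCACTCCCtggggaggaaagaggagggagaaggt
Gfi1b: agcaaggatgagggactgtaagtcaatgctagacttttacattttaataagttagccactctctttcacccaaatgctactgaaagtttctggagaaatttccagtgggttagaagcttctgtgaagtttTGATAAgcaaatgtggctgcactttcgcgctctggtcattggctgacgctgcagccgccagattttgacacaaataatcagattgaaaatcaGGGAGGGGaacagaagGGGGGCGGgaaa
The motifs were AGATAA or TGATAA for GATA factors, AGGAAG for ETS factors, TTGCNNAA for C/EBP factors, CCNCNCCC for KLF factors, and 2 GAAA blocks set 2 bases apart for IRF factors. The upstream sequence of Gfi1b held a GATA match 120 bases before the start, and that of Gata1 held an ETS match 125 bases before the start. The other capitals in these 2 sequences are KLF matches, 71, 55 and 34 bases before the start of Gata1. For Gfi1b they lie 28 and 12 bases before the start. Cebpa held a single KLF match, while Irf8 held 5, of which those 241 and 239 bases before the start share bases. Of 32851 RefSeq promoter windows of 300 bases, 18.6% held the GATA letters, 35.4% the ETS letters, 10.8% the C/EBP letters, 49.5% the KLF letters and 3.4% the IRF letters, so matches of most of these motifs are common. RefSeq windows were found for 8 of the 10 factors. Among those not printed, Klf1 had a GATA match 80 bases before its start and Gfi1 had a C/EBP match 143 bases before the first of its 2 starts.

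In the GENCODE M21 annotation of GRCm38 the genes lie at chr2:91082390-91115756 (Spi1), chr7:35119293-35121928 (Cebpa), chr2:167688915-167690418 (Cebpb), chr14:54710360-54712174 (Cebpe), chr8:120736358-120756694 (Irf8), chr5:107716657-107726036 (Gfi1), chrX:7959260-7978071 (Gata1), chr8:84901928-84905291 (Klf1), chr2:28609450-28621982 (Gfi1b) and chr11:11685003-11772926 (Ikzf1). The RefSeq start of Gata1 lies inside its GENCODE span. Values were deposited as FPKM, a fragment count corrected for transcript length and sequencing depth, so levels of different genes can be set side by side. The steps between low values place the depth of the libraries from 0.886 to 1.13, with LSK library 1 cultured alone set to 1. Absolute depth is unknown. Cebpb overlaps the antisense gene Tmem189, Irf8 shares its strand with the annotated Gm20388, and Cebpa, Gfi1 and Ikzf1 also overlap antisense genes. Use of strand in the counting is not given in the sources used here, so reads of such pairs cannot be told apart. The transcripts behind the sorting gates differed in the direction of the gates: Slamf1, which encodes CD150, stood at 10.2 and 10.7 FPKM in HSCs cultured alone and at 4.58 and 4.63 in LSK cells cultured alone. Cd48 stood at 42.7 and 40.5 FPKM against 147 and 184. The labels do not say that the 2 libraries of a group came from separate mice or cultures, so the spread between them may be technical. P-values weigh a difference against that spread, pooled over the 4 groups and moderated across the genes tested.

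Each of the 10 factors was above 0 in at least 1 library of every group, over a wide range of levels. Gfi1b was the most abundant in each of the 4 groups, with group means from 108 ± 7.20 FPKM in HSCs with RBCs to 202 ± 4.21 FPKM in LSK cells with RBCs (SD, n = 2). Spi1 came next in every group, at 66.7 ± 5.06 FPKM in HSCs cultured alone and 118 ± 1.51 FPKM in LSK cells with RBCs. Neither library of Spi1 overlapped those of its neighbours in the order in any group. Cebpb was the third in HSCs. In LSK cells Irf8 took that place, and without RBCs its libraries overlapped those of Cebpb. Gata1 and Ikzf1 stood close together in the middle of the order and overlapped in both groups with RBCs. At the lower end, Klf1 and Gfi1 overlapped in HSCs cultured alone and in LSK cells with RBCs, and Cebpa and Gfi1 overlapped in HSCs with RBCs. Cebpe was lowest throughout.

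**Figure D1:**
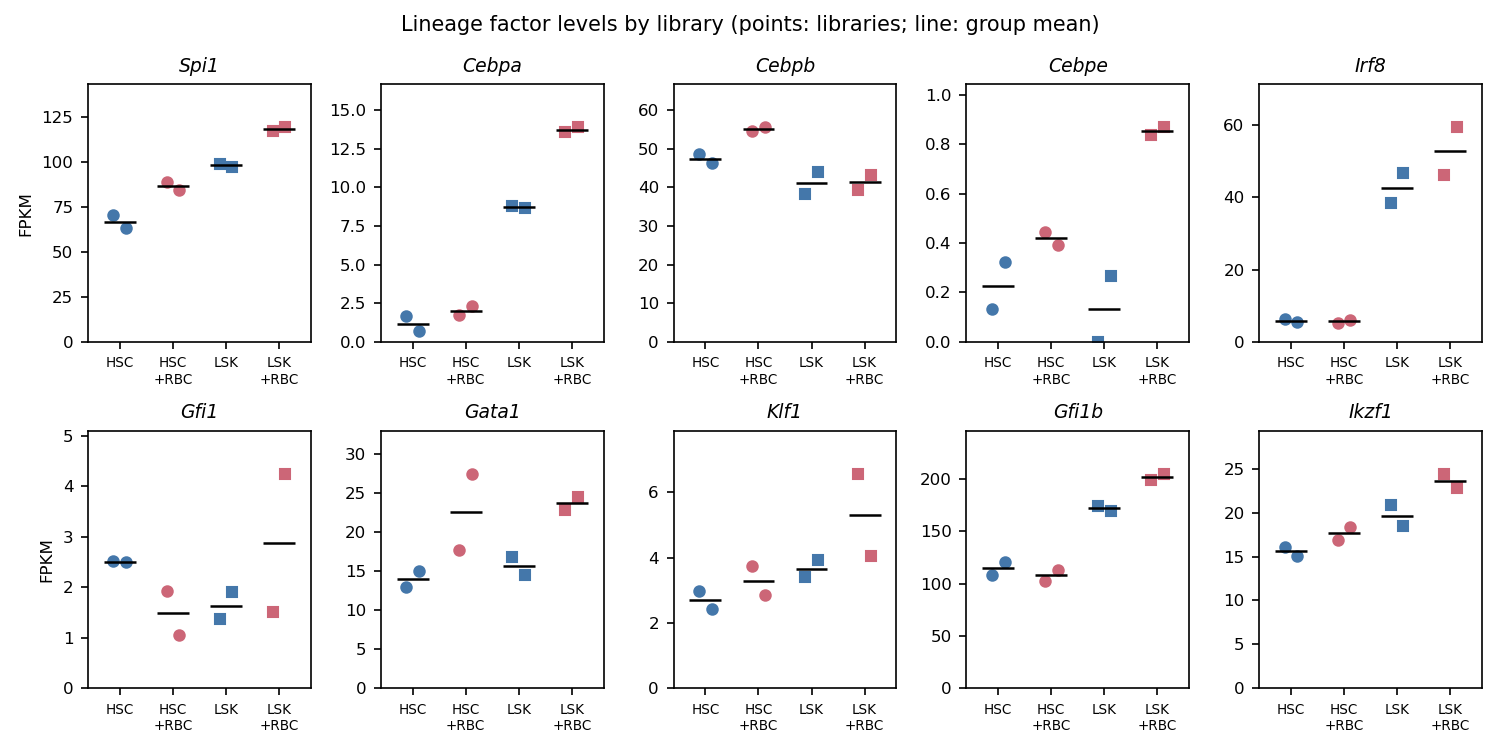
FPKM of each factor (vertical axis, linear and starting at 0, with its own scale in each panel) in the 8 libraries. Points are libraries, blue for cells cultured alone and red for cells with RBCs, circles for HSCs and squares for LSK cells. Lines are group means. Irf8, Cebpa, Spi1, Gfi1b and Ikzf1 lie higher in all LSK than in all HSC libraries, Ikzf1 by a narrow gap, and Cebpb lies lower. Gata1, Klf1, Gfi1 and Cebpe overlap between the gates once both cultures are pooled.

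The first comparison asks which of these factors distinguish the LSK fraction from HSCs in culture without RBCs. Irf8 and Cebpa were the factors with a difference of at least 2-fold, both higher in LSK cells. Irf8 measured 6.19 and 5.48 FPKM in HSCs cultured alone and 38.5 and 46.7 FPKM in LSK cells cultured alone. The groups lay far apart, with a difference of 2.67 ± 0.15 (SE) on the log2(FPKM + 1) scale (adjusted p = 1.25e-05, limma). Cebpa measured 1.64 and 0.679 FPKM in HSCs and 8.78 and 8.65 FPKM in LSK cells, so it was near the lower limit of the tested range in HSCs and clearly present in LSK cells. Its difference was 2.21 ± 0.21 (adjusted p = 0.00024). In bulk samples a difference between gates can come from a change in the number of cells that hold a transcript or in the amount each cell holds, and these cannot be told apart. Of all 12003 genes tested in this comparison, 2.66% passed an adjusted p of 0.05 with a change of at least 2-fold, against 2 of the 9 factors tested.

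Without the fold requirement, 4 of the 9 factors tested were higher in LSK cells and none was lower, where the shares over all genes were 6.93% higher and 7.29% lower. Spi1 had 70.3 and 63.2 FPKM in HSCs and 98.9 and 97.3 FPKM in LSK cells, a difference of 0.55 ± 0.07 on the log2 scale (adjusted p = 0.00142). Gfi1b had 108 and 121 FPKM in HSCs and 175 and 170 FPKM in LSK cells, a difference of 0.58 ± 0.08 (adjusted p = 0.00132). For both genes the LSK libraries lay above both HSC libraries, by less than 2-fold. The 4 calls, Irf8, Cebpa, Spi1 and Gfi1b, each held when any of the 8 libraries was left out. The erythroid factors Gata1 and Klf1 did not pass: Gata1 had 12.9 and 14.98 FPKM in HSCs and 16.8 and 14.5 FPKM in LSK cells, values that overlap, with a 95% interval of the log2 difference from -0.25 to 0.56. Klf1 had 2.97 and 2.43 FPKM against 3.40 and 3.93 FPKM, with an interval from -0.15 to 0.82. Gfi1, at 2.52 and 2.50 FPKM against 1.37 and 1.91 FPKM, had the widest interval, from -1.15 to 0.31. These intervals leave room for differences of up to about the size seen for Spi1 and beyond. Ikzf1 had 16.1 and 15.1 FPKM in HSCs and 20.8 and 18.5 FPKM in LSK cells (difference 0.31 ± 0.10, adjusted p = 0.0731), and Cebpb had 48.6 and 46.3 FPKM against 38.2 and 44.0 FPKM (difference -0.21 ± 0.09, adjusted p = 0.164). Their libraries did not overlap, but the differences did not pass the test.

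With RBCs in the culture the same question was asked again on separate libraries. Both comparisons share the spread estimated in the same fit of all 8 libraries, so the tests are not independent. Irf8 and Cebpa again differed by at least 2-fold, against 3.61% of all genes tested. Irf8 measured 5.28 and 6.05 FPKM in HSCs with RBCs and 46.0 and 59.3 FPKM in LSK cells with RBCs (difference 3.001 ± 0.147, adjusted p = 5e-06). Cebpa measured 1.72 and 2.30 FPKM against 13.6 and 13.9 FPKM (difference 2.30 ± 0.21, adjusted p = 0.000133). Both stayed low in HSCs, and each LSK library lay well above both HSC libraries. By the adjusted p alone, 5 of the 9 factors tested were higher in LSK cells and 1 was lower, where 11.9% of all genes were higher and 12.5% lower. Gfi1b had the next largest difference, 103 and 113 FPKM in HSCs with RBCs against 199 and 205 FPKM in LSK cells with RBCs (0.90 ± 0.08, adjusted p = 9.12e-05). Spi1 had 88.7 and 84.1 FPKM against 117 and 119 FPKM (0.45 ± 0.07, adjusted p = 0.00266). Ikzf1 had 16.9 and 18.4 FPKM against 24.4 and 22.8 FPKM (0.40 ± 0.10, adjusted p = 0.0202). Cebpb was the factor that was lower in LSK cells, at 54.5 and 55.6 FPKM in HSCs with RBCs and 39.4 and 43.3 FPKM in LSK cells with RBCs (-0.41 ± 0.09, adjusted p = 0.0107). The calls for Irf8, Cebpa, Gfi1b and Spi1 held when any library was left out. Those for Cebpb and Ikzf1 were each lost when HSC library 1, HSC library 2 or LSK library 1 with RBCs was left out, and that for Ikzf1 also without LSK library 2, with adjusted p up to 0.0769 for Cebpb and 0.126 for Ikzf1. Gata1, at 17.7 and 27.5 FPKM in HSCs with RBCs and 22.9 and 24.5 FPKM in LSK cells with RBCs, showed no separation between the gates (interval -0.31 to 0.50). Klf1, at 3.74 and 2.85 FPKM against 6.56 and 4.04 FPKM, missed the test (0.53 ± 0.21, adjusted p = 0.102), and passed it only without LSK library 2 with RBCs (0.82, adjusted p = 0.0456).

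**Figure D2:**
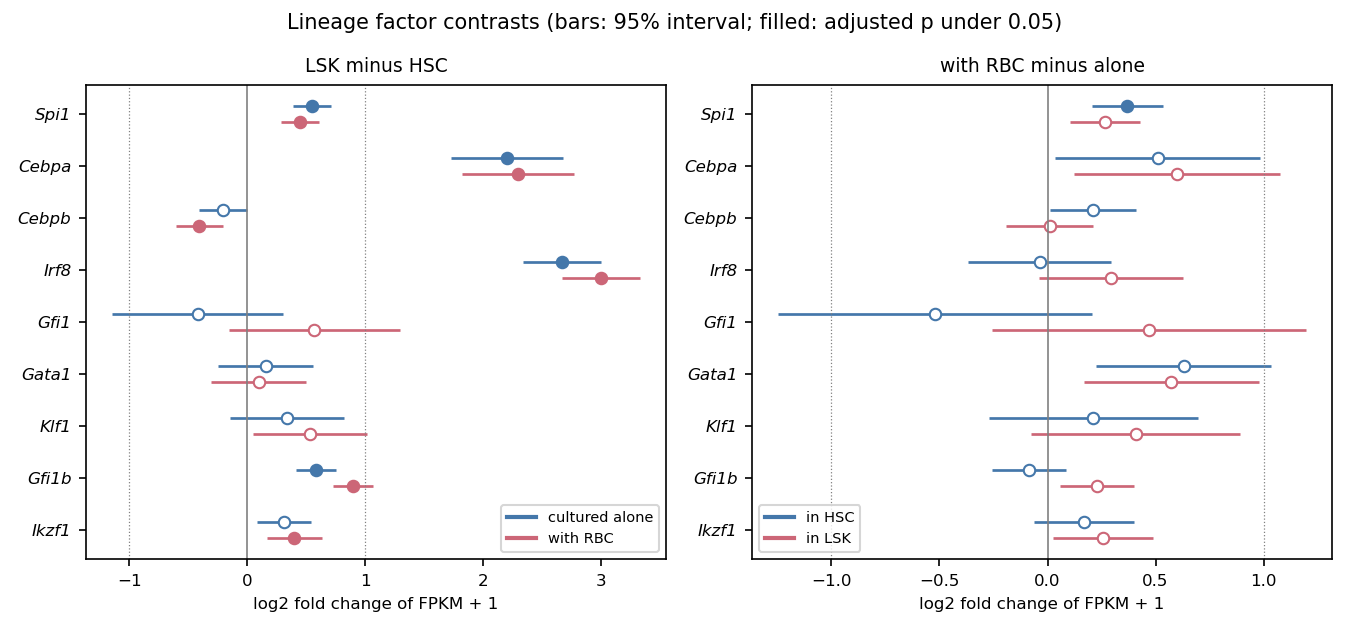
Log2 fold change of FPKM + 1 (horizontal axis) for the 9 factors tested, for LSK cells minus HSCs on the left and for cells with RBCs minus cells cultured alone on the right. Points are limma estimates with 95% intervals, filled where the adjusted p was under 0.05, and dotted lines mark 2-fold; the Cebpa and Irf8 differences between gates lie beyond 2-fold, and Spi1 in HSCs is the single filled point on the right.

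The next comparison asks whether 1 day with RBCs changed these factors. No factor was called at 2-fold in either gate, against 0.775% of all genes in HSCs and 1.01% in LSK cells. These comparisons use the same 8 libraries as those between the gates. In HSCs, Spi1 was the 1 of 9 factors tested that passed the adjusted p, in which 1.57% of all genes were higher and 0.958% lower. It rose from 70.3 and 63.2 FPKM to 88.7 and 84.1 FPKM, a difference of 0.37 ± 0.07 (adjusted p = 0.0315). Both libraries with RBCs lay above both without. The call was weak, for it held only without HSC library 1 cultured alone among the 8 fits that left out a library, with adjusted p from 0.054 to 0.228 in the other 7, while the difference stayed between 0.29 and 0.45. In LSK cells Spi1 went from 98.9 and 97.3 FPKM to 117 and 119 FPKM (0.27 ± 0.07, adjusted p = 0.0875), again without overlap and short of the test. In LSK cells 0 of the 9 factors passed by limma, where 2.32% of all genes were higher and 1.13% lower. At an unadjusted p under 0.05, 4 of the 9 did in HSCs and 5 in LSK cells, where 13.7% and 18.6% of all genes did. All 9 estimates in LSK cells were above 0, with a median of 0.29 against -0.01 over all genes tested, and 6 of 9 were in HSCs, with a median of 0.21 against -0.01. The estimates for single factors share the same libraries, so they are not separate measurements of a direction.

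Gata1 had the largest estimate with RBCs in HSCs and the next to Cebpa in LSK cells, and neither passed. It went from 12.9 and 14.98 FPKM to 17.7 and 27.5 FPKM in HSCs (0.63 ± 0.18, adjusted p = 0.13). In LSK cells it went from 16.8 and 14.5 FPKM to 22.9 and 24.5 FPKM (0.57 ± 0.18, adjusted p = 0.131). In both gates each library with RBCs lay above both libraries without. The HSC estimate moved from 0.33 without HSC library 2 with RBCs to 0.93 without HSC library 1 with RBCs, where it passed (adjusted p = 0.0304), so these 2 libraries decide its size. Cebpa had 1.64 and 0.679 FPKM in HSCs cultured alone and 1.72 and 2.30 FPKM with RBCs, a narrow gap that did not pass (adjusted p = 0.322). In LSK cells it went from 8.78 and 8.65 FPKM to 13.6 and 13.9 FPKM (0.60 ± 0.21, adjusted p = 0.173). There the replicates lay close together, while the standard error from limma pools all 4 groups, of which HSCs cultured alone had the widest spread for Cebpa. Fitted with the 2 LSK groups alone, the difference had an adjusted p of 0.0477. Klf1 went from 3.40 and 3.93 FPKM to 6.56 and 4.04 FPKM in LSK cells (0.41 ± 0.21, adjusted p = 0.346), and Irf8 from 38.5 and 46.7 FPKM to 46.0 and 59.3 FPKM (0.29 ± 0.15, adjusted p = 0.322). Irf8 overlapped between the LSK groups, and Klf1 was separated by a small gap. Cebpb in LSK cells gave the estimate nearest to 0 (0.01 ± 0.09, 95% interval -0.19 to 0.21).

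Cebpe lay below the filter of 1 FPKM in 2 libraries and entered no count above. Its values were 0.132 and 0.322 FPKM in HSCs cultured alone, 0.445 and 0.393 FPKM in HSCs with RBCs, 0 and 0.267 FPKM in LSK cells cultured alone and 0.838 and 0.869 FPKM in LSK cells with RBCs. The steps of its values correspond to 2 and 4, 6 and 6, 0 and 4, and 10 and 11 reads, so it was at the edge of detection, and 3 reads are worth 0.223 FPKM in the LSK library listed at 0. Summed over the 2 libraries, LSK cells with RBCs had 21 reads (exact 95% Poisson interval 13.0 to 32.1, counting error only) and LSK cells cultured alone had 4 (1.09 to 10.2). In a fit of all genes above 0 the LSK difference was 0.72 ± 0.13 (adjusted p = 0.072), which does not pass. Gfi1 was also sparse, with 38 to 128 reads a library. It had 2.52 and 2.50 FPKM in HSCs cultured alone, 1.93 and 1.05 FPKM with RBCs, 1.37 and 1.91 FPKM in LSK cells cultured alone and 1.51 and 4.25 FPKM with RBCs. The value of 4.25 stands apart from its pair. Without that library the difference in LSK cells with RBCs was -0.06 in place of 0.47, and without the other LSK library with RBCs Gfi1 passed as higher in LSK cells than in HSCs, both with RBCs (1.10, adjusted p = 0.0305).

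Whether the change with RBCs differed between LSK cells and HSCs was tested as an interaction. None of the 9 factors passed by limma, where 0.0833% of all genes were past the adjusted p in the direction of LSK cells, 0.05% in that of HSCs and 0.108% past it with 2-fold. At an unadjusted p under 0.05, as 12.5% of all genes were, 1 of the 9 did, Gfi1b (0.31 ± 0.11, adjusted p = 0.288), whose libraries overlapped in HSCs (108 and 121 FPKM, then 103 and 113 FPKM) and lay higher with RBCs in LSK cells (175 and 170 FPKM, then 199 and 205 FPKM). For Gata1 the interaction estimate was -0.06 with a 95% interval from -0.63 to 0.52, and for Spi1 -0.10 with an interval from -0.33 to 0.13. The 2 gates could thus differ in the Gata1 change by close to its own size. The change averaged over both gates, a contrast added after the values had been seen, drew on all 8 libraries. In it, Spi1 (0.32 ± 0.05, adjusted p = 0.00754) and Gata1 (0.60 ± 0.13, adjusted p = 0.0281) were higher with RBCs, 2 of the 9 factors, where 3.38% of all genes were higher and 1.99% lower, and none passed 2-fold, where 0.75% of all genes did. Cebpa came next (0.55 ± 0.15, adjusted p = 0.0706). Spi1 passed in each of the 8 fits that left out a library. Gata1 passed only in the 2 that left out an HSC library with RBCs, and had adjusted p from 0.0519 to 0.101 in the other 6.

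Opposing factors were also set against each other within each library, as log2 ratios of FPKM + 1 and with no test. Cebpa to Gata1 was -2.40 and -3.25 in HSCs cultured alone, -2.78 and -3.11 in HSCs with RBCs, -0.87 and -0.68 in LSK cells cultured alone and -0.72 and -0.78 in LSK cells with RBCs. The gates did not overlap, and within each gate the groups with and without RBCs did. Spi1 to Gata1 was 2.36 and 2.01, then 2.26 and 1.58 in HSCs, and 2.49 and 2.67, then 2.30 and 2.23 in LSK cells. Spi1 exceeded Gata1 in each library, from 3.06 to 6.72 times in FPKM, and in LSK cells both libraries with RBCs had a lower ratio than those without. Gfi1 to Gfi1b lay between -6.31 and -4.96, with Gfi1 at between 0.0076 and 0.0233 of the FPKM of Gfi1b.

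**Figure D3:**
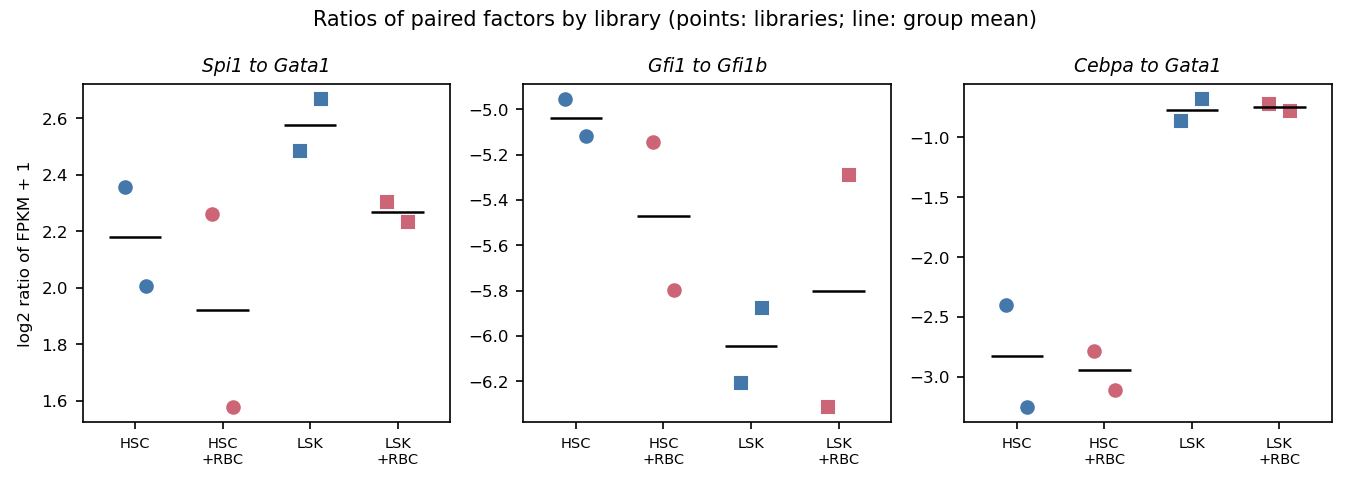
Log2 ratio of FPKM + 1 (vertical axis, not starting at 0) for 3 pairs of factors in the 8 libraries, with points for libraries and lines for group means. Cebpa to Gata1 lies at -3.25 to -2.40 in the HSC libraries and at -0.87 to -0.68 in the LSK libraries, while the other pairs overlap between gates.

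Genes that these factors are known to act on, and their relatives and partners, were taken from lists chosen with earlier results of these data known, and are given as counts. Of the 20 myeloid target genes tested, 12 were higher and 2 lower in LSK cells than in HSCs without RBCs. Over all genes 6.93% were higher and 7.29% lower. The median log2 difference was 1.07 for the targets against 0.01 over all genes. With RBCs 14 were higher and 1 lower, where 11.9% of all genes were higher and 12.5% lower. Mpo, Ctsg and Elane of the primary granules led, while Prtn3 of the same granules overlapped between the gates without RBCs. Mpo, myeloperoxidase, stood at 17.8 and 11.1 FPKM in HSCs and 466 and 585 FPKM in LSK cells cultured alone (5.12 ± 0.28, limma adjusted p = 1.25e-05). Ctsg (4.32 ± 0.25) and Elane, at 3.45 and 1.75 FPKM against 33.6 and 33.1 FPKM, encode proteases of the same granules and followed. With RBCs, 4 of the 20 were higher and 1 lower in HSCs, where 1.57% of all genes were higher and 0.958% lower. In LSK cells 6 were higher and none lower, where the shares over all genes were 2.32% and 1.13%. Itgam, which encodes CD11b, rose from 3.54 and 3.14 FPKM to 22.5 and 25.9 FPKM in HSCs and from 5.85 and 7.73 FPKM to 26.5 and 28.1 FPKM in LSK cells (2.54 ± 0.14 and 1.87 ± 0.14). Csf1r, the receptor for macrophage colony-stimulating factor and a known PU.1 target, rose from 2.53 and 2.81 FPKM to 7.07 and 9.37 FPKM in HSCs and from 14.1 and 22.8 FPKM to 47.2 and 54.3 FPKM in LSK cells. Both genes rose in both gates, Itgam in every fit that left out a library. The Csf1r call was lost without either HSC library cultured alone or HSC library 2 with RBCs, and without either LSK library with RBCs. Mpo fell in HSCs, to 6.16 and 2.82 FPKM (-1.53 ± 0.28, adjusted p = 0.0214, lost without HSC library 1 cultured alone or HSC library 2 with RBCs), and Cd33 rose in LSK cells, from 6.36 and 5.47 FPKM to 17.5 and 24.6 FPKM (1.66 ± 0.19). The change of Prtn3 differed between the gates (interaction 0.89 ± 0.10, adjusted p = 0.00927, lost without HSC library 1 or LSK library 2 with RBCs): this gene of the same granules had 223 and 231, then 208 and 216 FPKM in HSCs, and 223 and 204, then 359 and 384 FPKM in LSK cells. Left-out libraries moved the counts with RBCs, to 2 to 4 higher in HSCs and 3 to 8 in LSK cells. The lowest counts came without HSC library 1 cultured alone or HSC library 1 with RBCs, and without either LSK library with RBCs.

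Late granule genes, which C/EBPε is known to switch on, were sparse, and 7 of 9 were tested. In HSCs 1 was higher with RBCs, Chil3, where 1.57% of all genes were. In LSK cells 2 were higher, Mmp9 (1.53 ± 0.21) and Mmp8 (1.14 ± 0.25), where 2.32% of all genes were. Chil3 had 0.051 and 0 FPKM in HSCs cultured alone and 19.3 and 3.45 FPKM with RBCs, and the call was lost without HSC library 1 with RBCs or either HSC library cultured alone. In LSK cells Mmp9 passed in each fit but that without LSK library 1 with RBCs, while Mmp8 passed only without either HSC library cultured alone. Between the gates Mmp8 was higher in LSK cells without RBCs (0.99 ± 0.25, lost without library 2 of either group), and both Mmp8 (2.34 ± 0.25) and Mmp9 (1.84 ± 0.21) were with RBCs. Of the 8 lymphoid priming genes tested, all were higher in LSK cells by at least 2-fold, both without and with RBCs. At that threshold 2.66% and 3.61% of all genes passed in either direction. Dntt, the terminal transferase of early lymphoid cells, stood at 0.691 and 1.67 FPKM in HSCs and 27.7 and 74.2 FPKM in LSK cells cultured alone (4.45 ± 0.38), and Flt3, a cytokine receptor of early lymphoid progenitors, was also higher (2.13 ± 0.14). With RBCs 1 of the 8 was higher in HSCs, Cd52 (0.64 ± 0.11), where 1.57% of all genes were. None was in LSK cells by limma, where 2.32% of all genes were. There 3 of 8 had an unadjusted p under 0.05, as did 18.6% of all genes. The Cd52 call was lost without HSC library 1 cultured alone or either HSC library with RBCs.

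Erythroid target genes were mostly below the filter: 8 of the 17 in the tables were tested. None of the 8 passed with RBCs in HSCs or in LSK cells by limma, with medians of -0.09 and 0.03 and with 1 and 2 of 8 at an unadjusted p under 0.05, near the 13.7% and 18.6% of all genes. Between the gates without RBCs none was higher and 2 were lower in LSK cells. Over all genes 6.93% were higher and 7.29% lower. The lower genes were Car2 (-0.94 ± 0.06), a carbonic anhydrase, and Epor (-0.74 ± 0.20), the erythropoietin receptor. Car2 had 746 and 776 FPKM in HSCs and 403 and 387 FPKM in LSK cells. Car2 passed in each fit that left out a library, and Epor in none that left out a library of this comparison. With RBCs 2 were higher, Car1 (1.11 ± 0.32) and Epb4.2 (0.93 ± 0.24), and 2 were lower, Car2 (-0.64 ± 0.06) and Hemgn (-0.90 ± 0.21). Over all genes 11.9% were higher and 12.5% lower there. Car1 was lost whichever of the 4 libraries compared was left out, Epb4.2 without HSC library 1 or 2 or LSK library 2, and Hemgn without HSC library 1 or LSK library 2. Of 11 megakaryocyte targets tested, 4 were lower in LSK cells without RBCs and 3 with RBCs, where 7.29% and 12.5% of all genes were. Vwf (-1.08 ± 0.12), Selp (-0.97 ± 0.14) and Gp9 (-0.94 ± 0.20) led without RBCs. Pf4 (-2.61 ± 0.44) led with RBCs, followed by Vwf (-1.07 ± 0.12). In HSCs with RBCs 2 were higher by limma, Gp1ba (adjusted p = 0.0136) and Itgb3 (adjusted p = 0.013), where 1.57% of all genes were. In LSK cells Pf4 was lower with RBCs (-2.06 ± 0.44), where 1.13% of all genes were. Gp1ba was lost without either HSC library cultured alone or HSC library 1 with RBCs, Itgb3 without library 2 of either, and Gp9 without either HSC library or LSK library 1 cultured alone. The Pf4 call in LSK cells was kept only in the fits without an LSK library cultured alone, and its values there, 130 and 37.8 FPKM, lay far apart.

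**Figure D4:**
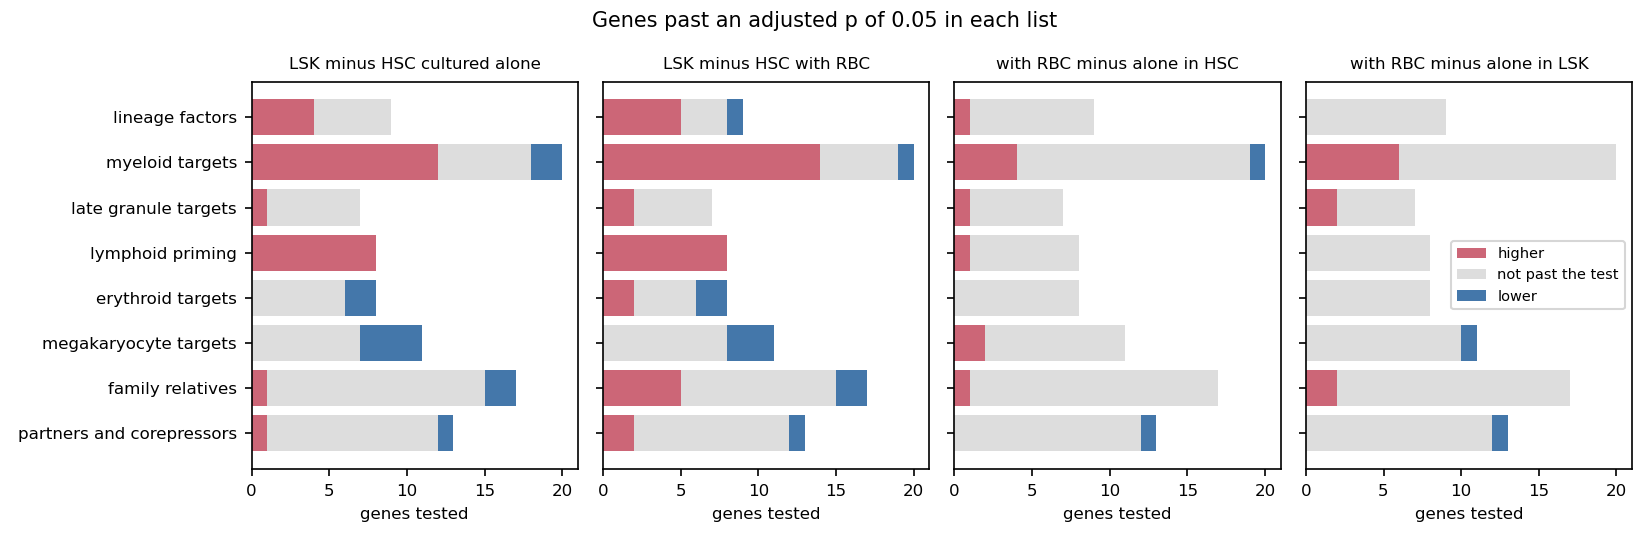
Number of genes tested (horizontal axis) in each list, split into those higher, not past and lower at an adjusted p of 0.05, in 4 comparisons. Lymphoid priming genes are all higher in LSK cells in both cultures, and the lineage factors have 4 and then 5 higher, with 1 and then 0 higher when RBCs are added to HSCs and to LSK cells. Over all genes, in the same order, 6.93%, 11.9%, 1.57% and 2.32% were higher and 7.29%, 12.5%, 0.958% and 1.13% lower.

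Among 17 family relatives tested, Irf4, an interferon regulatory factor of lymphoid and some myeloid cells, was higher with RBCs in both gates, from 0.227 and 0.700 FPKM to 2.46 and 2.49 FPKM in HSCs and from 0.731 and 0.382 FPKM to 3.24 and 2.53 FPKM in LSK cells (1.27 ± 0.22 and 1.32 ± 0.22). Klf2 rose in LSK cells (1.26 ± 0.18). With RBCs 1 of the 17 was thus higher in HSCs and 2 in LSK cells, and none was lower. The shares over all genes there were 1.57% and 2.32% higher and 0.958% and 1.13% lower. Irf4 and Klf2 moved by more than any of the 9 factors themselves, at low levels. Between the gates without RBCs, 1 of the 17 relatives was higher and 2 lower in LSK cells. Over all genes 6.93% were higher and 7.29% lower. These relatives were Ddit3 (0.62 ± 0.09), Ikzf4 (-0.91 ± 0.17) and Gata2 (-0.33 ± 0.09), a GATA factor of stem cells. The Gata2 call held only without HSC library 2 cultured alone. With RBCs, where 11.9% of all genes were higher and 12.5% lower, 5 of the 17 were higher and 2 lower. Cebpd (1.07 ± 0.19), Spib (1.04 ± 0.23) and Ikzf4 (-0.64 ± 0.17) led. Of these Cebpd passed in each fit that left out a library, Spib was lost without HSC library 1 or LSK library 1 with RBCs, and Ikzf4 without HSC library 2 or either LSK library with RBCs. The Irf4 call in HSCs was lost without HSC library 1 cultured alone or either HSC library with RBCs. In LSK cells Irf4 and Klf2 were lost without either LSK library with RBCs, and Irf4 also without LSK library 2 cultured alone. Of 13 partners and corepressors, Lmo2, the bridging protein of the GATA1 and TAL1 complex, fell with RBCs in both gates, from 451 and 471 FPKM to 271 and 284 FPKM in HSCs (-0.73 ± 0.06, adjusted p = 0.000379) and from 428 and 428 FPKM to 330 and 336 FPKM in LSK cells (-0.36 ± 0.06, adjusted p = 0.0127). Lmo2 in HSCs passed in each fit that left out a library, and in LSK cells it did not pass when an LSK library was left out. Lmo2 was the 1 of the 13 that passed with RBCs in each gate. The shares of all genes that were lower with RBCs were 0.958% in HSCs and 1.13% in LSK cells. Between the gates without RBCs 1 of the 13 was higher in LSK cells and 1 lower, near the 6.93% and 7.29% of all genes. With RBCs 2 were higher and 1 lower, where 11.9% and 12.5% of all genes were. Myb was higher in LSK cells than in HSCs without and with RBCs (0.30 ± 0.08 and 0.53 ± 0.08). Hdac1 was lower in both (-0.25 ± 0.06 and -0.31 ± 0.06). Myb with RBCs passed in each fit that left out a library. Without RBCs it passed in none that left out a library compared, and Hdac1 was lost in 3 such fits without RBCs and 2 with RBCs.

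Markers of other cells moved with some of these comparisons, and their part in the results was not tested. The summed FPKM of 8 neutrophil markers was 9.74 to 9.78 in HSCs cultured alone, 45.9 to 246 with RBCs, 128 to 196 in LSK cells cultured alone and 353 to 535 with RBCs, with Stfa2l1 and Mmp25 at 0 in all libraries. Of the 6 that were tested, 2 were higher with RBCs in HSCs, none of them without either HSC library cultured alone, and 1 in LSK cells. Over all genes 1.57% were higher with RBCs in HSCs and 2.32% in LSK cells, shares that also apply to the red cell counts below. In LSK cells 5 of the 6 neutrophil markers were higher than in HSCs without RBCs and 2 with RBCs. The shares over all genes between the gates were 6.93% and 11.9% higher. The 2 HSC libraries with RBCs differ in the neutrophil sum, 246 in library 1 and 45.9 in library 2, where Spi1 stood at 88.7 and 84.1 FPKM and Gata1 at 17.7 and 27.5 FPKM. Red cell RNA rose with RBCs in 4 of 8 genes tested in HSCs and 1 in LSK cells: Hba-a1, an α-globin gene, went from 0.0826 and 1.40 FPKM to 116 and 88.7 FPKM in HSCs and from 0.864 and 1.53 FPKM to 32.9 and 43.1 FPKM in LSK cells. The α-globin genes are near-identical copies of each other, as are the adult β-globin genes, so the split of reads among copies is uncertain. The sum of the 9 red cell genes was 301 to 357 and then 327 to 335 in HSCs and 132 to 196 and then 139 to 198 in LSK cells, and Hbb-b2, at 279 and 335, then 120 and 158 FPKM in HSCs, did not pass. Slc4a1, which encodes the band 3 protein of red cells, was at 0 in 7 libraries. Mast cell and basophil markers, whose cells also hold Gata1, summed to 5.81 to 7.28 in HSCs cultured alone, 1.47 to 1.56 with RBCs, 29.3 to 46.5 in LSK cells cultured alone and 38.0 to 101 with RBCs. Of 5 mast cell and basophil markers tested, 3 were higher in LSK cells than in HSCs without RBCs and 4 with RBCs. There 6.93% and 11.9% of all genes were higher. Macrophage markers summed to at most 1.74 and none was tested, with C1qa and Marco at 0 in all libraries. T cell markers summed to at most 2.76. B cell markers summed to 34.7 to 51.6, nearly all Cd79b, with Pax5 at 0 in 3 of the groups. HSC markers summed to 270 to 285 in HSCs cultured alone, 222 to 230 with RBCs, and 179 to 184 in both LSK groups. In LSK cells 6 of 6 were lower than in HSCs without RBCs and 2 of 6 with RBCs, where 7.29% and 12.5% of all genes were. Fgd5 (-0.995 ± 0.145), Procr (-0.83 ± 0.09) and Hoxb5 (-0.82 ± 0.21) led without RBCs, Fgd5 (-1.26 ± 0.15) and Mecom (-0.87 ± 0.11) with RBCs, and Procr fell in HSCs with RBCs (-0.52 ± 0.09). Hoxb5 was lost in 5 of the 8 fits that left out a library and Procr in HSCs in 3. Among the 5 sorting markers Cd48 and Kit fell in HSCs with RBCs (-1.08 ± 0.15 and -0.37 ± 0.07). In that comparison 0.958% of all genes were lower, a share that also applies to Procr, the 1 of 6 HSC markers that fell. Ly6a, which encodes Sca-1, went the other way there, from 388 and 444 FPKM to 719 and 544 FPKM, and did not pass. It was lower in LSK cells than in HSCs with RBCs (-1.74 ± 0.22). The Cd48 fall was lost without HSC library 2 cultured alone and Kit whichever of the 4 HSC libraries was left out.

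The genes whose centred log2(FPKM + 1) profile over the 8 libraries lay nearest to that of a factor were named by a fixed rule, as a description. For Spi1 they were Gramd1a, Rinl and Zmiz1, at root mean square differences of 0.0537 to 0.0764 against a median of 0.341 over all genes. For Gata1 they were Veph1, Lif and Arhgap6, at 0.119 to 0.137 against 0.395, and Arhgap6 had 15.8 and 15.2 FPKM in HSCs cultured alone and 23.3 and 26.2 FPKM with RBCs. For Cebpa they were AF251705, Tm6sf1 and Card9, at 0.205 to 0.271 against 1.18. For Irf8 they included Rab44 and Tyrobp, a signalling adaptor of myeloid cells, at 0.215 and 0.306 against 1.43.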

How the data were processed

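RNA sequencing covered 8 libraries, full-length cDNA from total RNA, in 4 groups of 2 that were taken from the sample labels. Each library had a table in which the authors gave an FPKM value for every gene symbol. The submitters' processing notes name TopHat2 2.1.1, Bowtie2 2.2.8, SAMtools 0.1.18, Cuffdiff 2.2.1 and mm10; the gene annotation is not given in the sources used here. FPKM carries a scaling by the total of each library, so a change in a few abundant transcripts can shift the rest.

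From these, log2(FPKM + 1) was computed for the 12003 genes that reached 1 FPKM in 2 or more libraries, 9 of the 10 factors among them. limma 3.58.1 in R 4.3.3 fitted the 4 group means together with a mean-variance trend and no block, on 4 residual and 5.18 prior degrees of freedom. P-values were adjusted by Benjamini-Hochberg over all genes tested, and calls needed an adjusted p under 0.05, with and without a change of at least 2-fold. A single gene in 2 libraries against 2 cannot go below 0.333 in an exact two-sided permutation test. Fold changes on this scale understate those of low genes. Whole reads were recovered for 7 of the 10 factors, within 0.05 of a read.

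The factors and lists were chosen with earlier results of these data known. The text names the 10 factors and, from each list other than the markers of other cells, up to 3 genes a comparison past the adjusted p with the largest change, though not every comparison of a named gene is given. Single marker genes (Hba-a1, Hbb-b2, Slc4a1, Cd79b, Pax5, C1qa, Marco, Stfa2l1, Mmp25) are named to describe the marker sums, and were chosen after their values were seen. Likeness genes are the 3 nearest to Spi1, Gata1 and the factors past 2-fold. Some genes that these rules name are not reported here. Ahsp, Ighm, Hbb-bt, Ly6g and Ighd were not analysed here, and Epb42 is listed as Epb4.2. On simulated data for the RBC comparison in HSCs, with 12003 genes, 103 of 110 genes changed by 1.5 (log2) were recovered. So were 87 of 90 changed by 2, with 2 false calls over both sizes. Changes were placed only in genes with a mean log2(FPKM + 1) above 1 in HSCs cultured alone, and no smaller change was simulated. The largest RBC estimate of a factor in either gate was 0.63, and recovery at that size was not tested. Alternatives were the pseudocount, the filter, 3 scalings, a fit without the trend or with only the groups compared, a replicate block, no fold threshold, and the omission of each library. Proteins were not used here.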

Additional observations from a re-analysis of the deposited data

Results flagged for a closer look

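The change of Prtn3, which encodes proteinase 3 of the primary granules, differed between the gates by the interaction test of limma. With RBCs it went from 223 and 204 FPKM to 359 and 384 FPKM in LSK cells, while in HSCs it had 223 and 231 FPKM alone and 208 and 216 FPKM with RBCs. The difference of the changes was 0.891 on the log2(FPKM + 1) scale (adjusted p = 0.00927), and it ran from 0.826 to 0.956 with single libraries left out, with an adjusted p of up to 0.0786. It was past the threshold in 6 of those 8 fits and in 7 of 9 other alternatives, not with all genes above 0 or without the trend. Of the 20 myeloid target genes tested it was the 1 past the threshold in the interaction.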

How the results depend on the processing

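The Cebpa and Irf8 differences between LSK cells and HSCs kept their direction and their 2-fold calls under each alternative run, with adjusted p up to 0.00596 for Cebpa and 0.00121 for Irf8. With no fold threshold, the factors called numbered 1 for RBCs in HSCs, 4 for LSK cells against HSCs without RBCs, 6 with RBCs and 2 for the averaged RBC change. By the adjusted p alone, RBCs in HSCs gave 0 factors with all genes above 0, without the trend, or with the 2 groups alone, and RBCs in LSK cells gave 1 after quantile normalization (Spi1) or with the 2 groups alone (Cebpa). The averaged change gave 1 with all genes above 0 or without the trend. With single libraries left out, the numbers past the adjusted p ran from 0 to 1 for RBCs in HSCs, 0 to 1 in LSK cells, 1 to 2 for the averaged change and 4 to 6 for LSK cells against HSCs with RBCs, where the 2-fold calls ran from 2 to 3. Where an omission left a group with 1 library, that library was assumed to vary like the other groups. The causes were not tested beyond what the construction of each alternative gives.

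Of 954 values for single factors under an alternative, 902 kept their direction and side of the threshold, 25 lost and 10 gained a call, and 17 changed sign, all of them differences that had not passed. The Cebpa interaction became -0.195 with a pseudocount of 0.1 and -0.252 with 0.01, and ran from -0.237 to 0.418 with libraries left out. Likewise with libraries left out, Irf8 with RBCs in HSCs ran from -0.119 to 0.0466, the Gata1 interaction from -0.36 to 0.244, Gata1 between the gates with RBCs from -0.205 to 0.40, Cebpb with RBCs in LSK cells from -0.088 to 0.109, the Klf1 interaction from -0.0949 to 0.49, Gfi1 with RBCs in LSK cells from -0.0628 to 0.999 and the averaged Gfi1 change from -0.291 to 0.24. A fit with the replicate number as a replicate block changed no call of a factor, with 1, 0, 0, 4 and 6 factors past the adjusted p in the 5 planned comparisons and Spi1 with RBCs in HSCs still past it. Replicates of the same number did not deviate together between groups (6 correlations from -0.067 to 0.0954), so the numbers were not taken to pair the libraries. Of 69 calls of single list genes by the naming rule, 36 held under each alternative, 33 were lost under at least 1 and none changed sign. The fit with only the groups compared could not be fitted for the interaction or the averaged change.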
